A study of Mus musculus with 20 samples.

Results

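The genes described are 10 members of the plexin, semaphorin and neuropilin families, chosen by name from the rows of the deposited expression table: Plxnb2, Plxnb1, Plxna1, Plxna2, Plxnd1, Nrp1, Nrp2, Sema5a, Sema4b and Sema6a. Of these, 9 were among the 13283 gene symbols measured, and Nrp1 was not analysed here. The list was drawn up with earlier results of these data known, among them the difference in Plxnb2, so the differences given for the members describe them and are no independent evidence. The table holds 25 genes of the 3 families in all.

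Plexins are transmembrane receptors whose extracellular domain binds semaphorins and whose cytoplasmic domain acts as a GTPase-activating protein for small GTPases of the Ras family, chiefly Rap. Neuropilins lack an enzymatic domain of their own and serve as co-receptors, mainly for the secreted semaphorins and for VEGF. The families are best known for steering axons and migrating neurons, and in mouse the B-type plexin Plxnb2 is needed for closure of the neural tube.

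Levels were measured by mRNA sequencing of male C57BL/6 mouse embryonic stem cells kept in serum medium with LIF and the 2i inhibitors, a medium that holds such cells in the naive pluripotent state. TRIM71 is an RNA-binding protein of pluripotent cells whose NHL domain contacts RNA, and the title of the series asks how far its deletion and the R595H change act alike. In the first system, 4 Trim71-KO libraries were set against 4 Trim71-cond libraries, whose cells carry the floxed gene (genotype Trimfl/fl), and in both groups the libraries bear the codes 1A, 2B, 3A and 3B. The labels give day 1 for 1A, day 2 for 2B and day 3 for both 3A and 3B. They name neither the Cre line, nor the deleted part of the gene, nor a clone for these 8 libraries. In the second system there were 3 R595H/R595H clones (C14, C20, C24), 3 R595H/+ clones (C15, C21, C23) and 3 WT clones (C16, C5, C7). Clones C14, C15 and C16 each have a library titled 20/1 and one titled 5/2, which were averaged, and the other clones have one titled 5/2. All 5 groups share the strain and the medium, and nothing in the labels ties a library to a separate culture, so p-values measure the spread between these libraries or clones, which may in part be technical.

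Plxnb2 and Sema5a were the members that passed the test in Trim71-KO cells, one higher and one lower, and their promoters are shown for that reason, 250 bases before to 50 after the annotated start (RefSeq, GRCm38.p6), 5' to 3' on the strand of the gene. Promoter windows were taken for 7 of the members here. Capitals mark the GC box GGGCGG on either strand, with overlapping matches counted. Plxnb2 has an outer start at chr15:89180739-89181038 and an inner start at chr15:89173902-89174201, both on the minus strand, and Sema5a has a start at chr15:32244563-32244862 on the plus strand.
Plxnb2, outer start: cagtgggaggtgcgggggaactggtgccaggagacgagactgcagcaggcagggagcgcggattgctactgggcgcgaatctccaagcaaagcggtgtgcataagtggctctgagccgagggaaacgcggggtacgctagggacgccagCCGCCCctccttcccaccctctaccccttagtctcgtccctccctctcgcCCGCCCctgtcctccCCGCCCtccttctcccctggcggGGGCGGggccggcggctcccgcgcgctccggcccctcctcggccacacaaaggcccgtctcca
Plxnb2, inner start: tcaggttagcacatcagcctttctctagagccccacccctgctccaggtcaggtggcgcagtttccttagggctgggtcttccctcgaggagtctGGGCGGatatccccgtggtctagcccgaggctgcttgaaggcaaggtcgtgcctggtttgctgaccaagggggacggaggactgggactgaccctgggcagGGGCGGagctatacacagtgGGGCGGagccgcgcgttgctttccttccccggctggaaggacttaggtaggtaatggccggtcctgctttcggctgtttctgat
Sema5a: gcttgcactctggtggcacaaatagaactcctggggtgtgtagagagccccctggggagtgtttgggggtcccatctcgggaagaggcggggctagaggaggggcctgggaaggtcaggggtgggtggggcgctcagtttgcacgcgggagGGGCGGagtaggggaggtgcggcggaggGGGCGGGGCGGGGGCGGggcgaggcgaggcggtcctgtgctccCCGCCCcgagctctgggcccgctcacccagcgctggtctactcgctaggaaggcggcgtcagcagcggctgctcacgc
The 3 windows held 4, 3 and 5 GC boxes, and 35.7% of the 32851 promoter windows of this length hold at least one. The windows of the other members taken held them too. Plxnb1 and Nrp2 had 5 each, Plxna2 and Plxnd1 2 each, and Sema4b 2 in each of its 2 windows. None of the 3 windows shown held the CCAAT box (letters CCAAT, either strand), which 37.4% of all windows hold, nor did those of the other members. The same was so for the TATA box (letters TATAAA), present in 13.6% of windows. The E box, read as CACGTG, was also not found in the 3 windows shown and is present in 7.2% of windows. A match is a run of letters and no evidence of binding.

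The NHL domain of TRIM71 is known, from zebrafish and Caenorhabditis elegans, to bind short stem loops in 3' UTRs. The annotated 3' UTRs were therefore searched for a stem of 5 base pairs around a loop of 3 bases that ends in A, and the matches in Sema5a are shown because it was the member called in the difference between the 2 systems. Capitals mark the stem loop, and positions count from the first base of the 3' UTR (GENCODE vM21, GRCm38).
Sema5a, 2304 to 2316: gagcaATTCCTTAGGAATgcctt
Sema5a, 4763 to 4775: ggtgcAAATAGTATATTTcatta
Sema5a, 5821 to 5833: agatcTGCTTCGAAAGCAtgcac
The 3' UTR of Sema5a has 6926 bases, and 92.7% of the 109 UTRs within 10% of its length hold such a stem loop. The 3' UTR of Plxnb2 has 732 bases and holds no match, where 29.4% of the 759 UTRs of like length hold one. Plxna2 and Nrp2 each held 2 matches, where 87.4% and 76.7% of UTRs of like length hold one, and Sema6a held 4, where 38.3% do. The seed match of let-7a (CTACCTC) occurred once each in Plxna2, Plxnd1 and Sema4b, beside 26.5%, 6.6% and 9.6% of UTRs of like length. That of miR-294 (AGCACTT) occurred once in Plxna1, beside 32.4%.

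The libraries had medians of 5.15 to 5.20 (log2), while their depth is unknown. The values behave like shrunken log values, so the differences of low members may be understated, by an amount that was not measured. Trim71 itself stood at 7.44, 7.43, 7.47 and 7.53 in Trim71-KO libraries (codes 1A, 2B, 3A, 3B), against 8.94, 8.94, 8.93 and 9.01 in Trim71-cond libraries. A substantial value for the gene as a whole thus remained in Trim71-KO libraries. The deleted part is not given, so reads from the rest of the gene cannot be told apart from intact transcript. In R595H/R595H clones Trim71 was 0.61 higher than in WT clones (adjusted p = 6.34e-04, limma). The stem cell genes Pou5f1, Sox2 and Nanog had group means between 8.74 and 10.7, of the 7 fibroblast or feeder markers only Thy1 was in the table, and the summed level of the 4 neural markers measured was 6.50 to 6.72 in R595H/R595H clones, against 6.56 to 6.66 in WT clones, and 6.81 to 7.02 in Trim71-KO libraries, against 6.83 to 6.92 in Trim71-cond libraries. Sums of other lists parted between groups. Of the 4 endothelial markers listed, Cdh5 and Emcn had no values. The 2 measured (Pecam1 and Tek) summed to 8.48 to 8.55 in R595H/R595H clones, against 8.77 to 8.87 in WT clones. The 9 stem cell markers summed to 13.04 to 13.16 in Trim71-KO libraries, against 12.84 to 12.96 in Trim71-cond libraries. They did not all go one way. Pou5f1, Zfp42, Dppa5a and Utf1 had lower group means in Trim71-KO than in Trim71-cond cells, and the rest of that list had higher ones. Thy1 ran from 1.88 to 1.92 in R595H/R595H clones, against 1.79 to 1.86 in WT clones. The 4 primitive endoderm markers summed to 3.06 to 3.09 in Trim71-KO libraries, against 3.13 to 3.20 in Trim71-cond libraries. Thy1 and these 4 markers lay under the minimum mean of 3.32 for testing. The part of these lists in the results was not tested. The mean of 4 Y-linked genes differed among clones, from 3.72 to 4.36 in R595H/R595H libraries and 4.02 to 5.61 in R595H/+ libraries, against 3.89 to 6.00 in WT libraries, and its part in the clonal results was examined only by using it as a covariate. It was 5.65 to 5.80 in Trim71-KO libraries, against 5.88 to 6.20 in Trim71-cond libraries, where its part was not tested. Lars2 took 13.2% of the back-transformed sum in R595H/R595H C24 and 0.334% to 7.57% in the other libraries. Some libraries did not deviate independently of one another. Across 9580 genes, the deviations of the 2 libraries of code 1A from their group means correlated at -0.89, against -0.12 to 0.13 for the other codes. Those of the 3 libraries titled 20/1 correlated at between -0.95 and 0.67. For the 5/2 libraries of the same clones, C14, C15 and C16, the range was -0.50 to 0.72. How this arose is not given in the sources used here and was not tested. Results are given without the libraries of code 1A or those titled 20/1 where that changes a call.

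Plxnb2, a receptor for class 4 semaphorins, was the member with the largest difference in both systems. It lies on chromosome 15 (89155549 to 89180788, GRCm38, minus strand, 38 exons). Plxnb2 had levels of 8.46, 8.63, 8.30 and 8.46 in Trim71-KO libraries, against 7.65, 7.75, 7.55 and 7.47 in Trim71-cond libraries. Every Trim71-KO library lay above every Trim71-cond library. In bulk RNA, a change in the share of cells that express a gene and a change per cell cannot be told apart. The means were 8.46 ± 0.13 in Trim71-KO and 7.60 ± 0.12 in Trim71-cond cells (SD, n = 4 each), a difference of 0.86 on the log2 scale with a standard error of 0.07, or 1.82-fold (limma, adjusted p = 1.35e-07). The two-sided exact permutation test gave 0.0286, the smallest p that 4 against 4 libraries allow. By code, the difference was 0.81 in 1A, 0.88 in 2B, 0.75 in 3A and 1.00 in 3B, and with both libraries of code 1A left out, an alternative chosen after seeing the data, it was 0.88.

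In the clones, Plxnb2 stood at 8.47, 8.64 and 8.39 in R595H/R595H (C14, C20, C24), at 7.78, 7.72 and 7.92 in R595H/+ (C15, C21, C23), and at 7.79, 7.74 and 7.61 in WT (C16, C5, C7). The 3 homozygous clones lay above all others, while R595H/+ and WT clones overlapped. R595H/R595H clones averaged 8.50 ± 0.13 and WT clones 7.71 ± 0.09 (SD, n = 3 each), a difference of 0.79 or 1.73-fold (limma, standard error 0.09, adjusted p = 5.19e-04). Within dates, the difference was 0.75 between the single libraries titled 20/1 and 0.77 between the 3 clones each titled 5/2. The difference of R595H/+ from WT was 0.09, with a 95% interval from -0.09 to 0.27 (adjusted p = 0.86). R595H/R595H exceeded R595H/+ by 0.70 (adjusted p = 0.0037). With the Y-linked mean as a covariate that last adjusted p was 0.051. These comparisons share clones, since WT enters 2 of them and R595H/R595H enters 2.

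The Trim71-KO difference of Plxnb2 minus its R595H/R595H difference was 0.07 (95% interval -0.17 to 0.31, adjusted p = 0.79, limma over 17 units). The interval leaves room for effects that differ by up to 0.31 on the log2 scale. Genotype and system cannot be told apart in this difference.

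**Figure D1:**
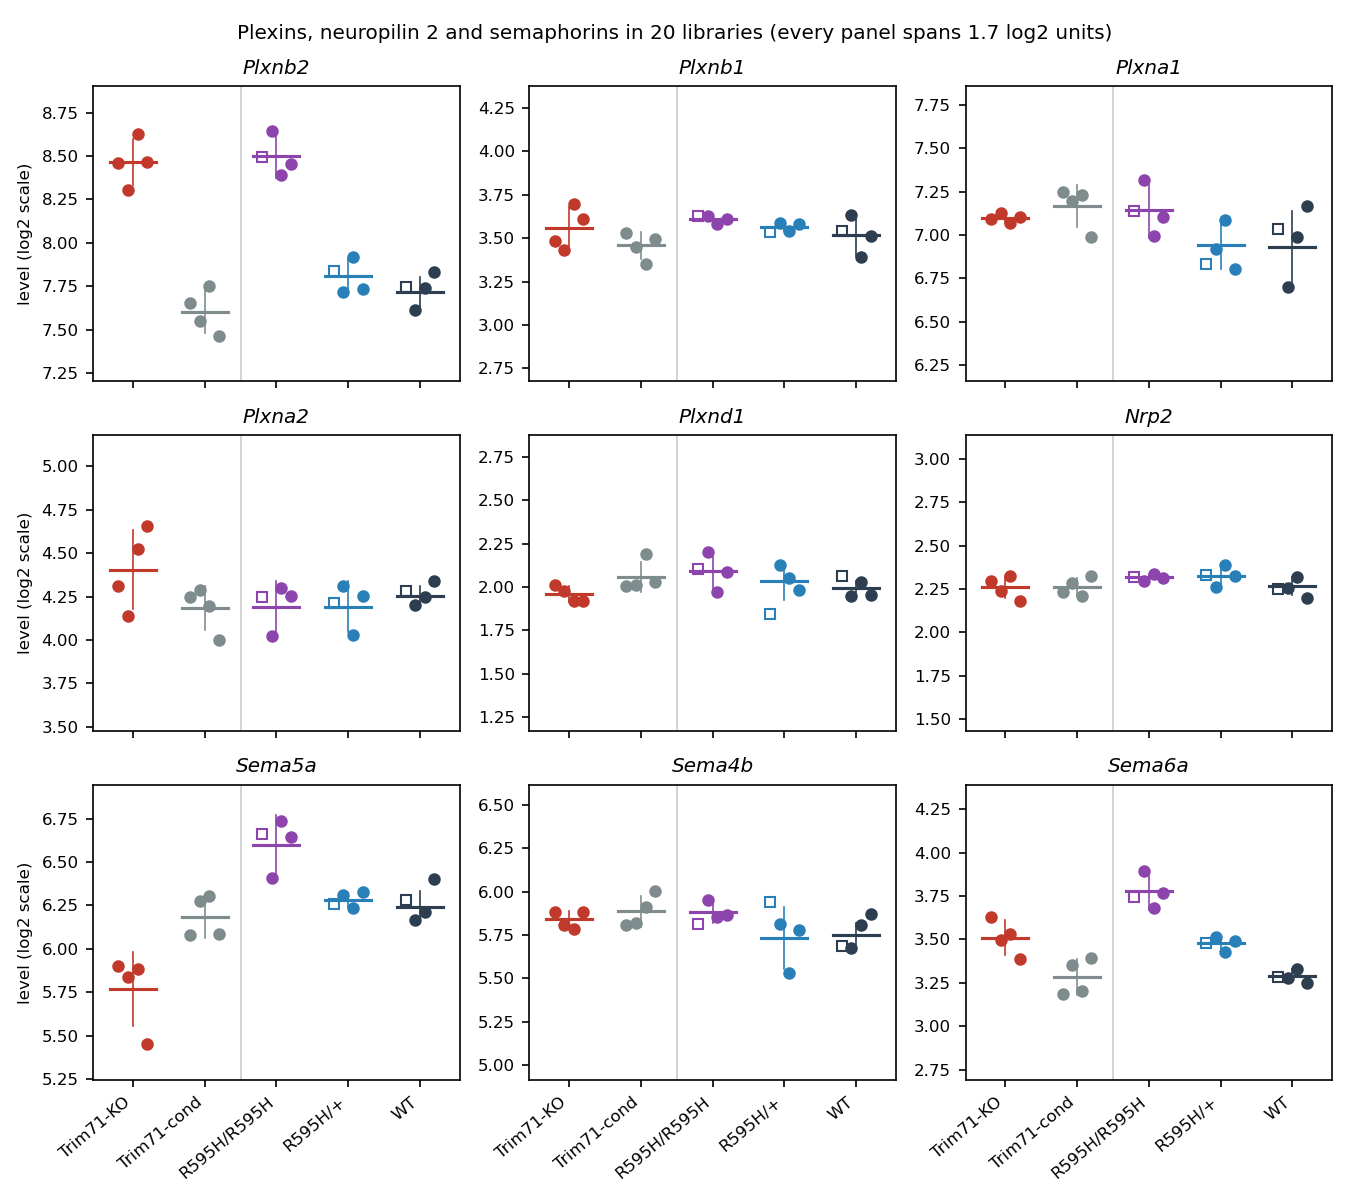
Levels of the 9 measured genes on the log2 scale in 20 libraries, by group. Filled circles are libraries, open squares the libraries titled 20/1, horizontal lines the group means over libraries or clones and vertical lines 1 SD. Plxnb2 lies between 8.30 and 8.64 in Trim71-KO and R595H/R595H cells and between 7.47 and 7.92 in the other 3 groups.

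The other plexins showed no difference that passed the test. Plxnb1, the high-affinity receptor of Sema4d, is on chromosome 9 (109095389 to 109119917). It had 3.49, 3.70, 3.43 and 3.61 in Trim71-KO libraries, against 3.53, 3.35, 3.45 and 3.50 in Trim71-cond libraries, and the groups overlapped. Clone values of Plxnb1 ran from 3.58 to 3.63 in R595H/R595H and 3.54 to 3.59 in R595H/+, against 3.39 to 3.64 in WT. Its difference was 0.10 (95% interval -0.07 to 0.27) in Trim71-KO and 0.09 (-0.08 to 0.26) in R595H/R595H cells. An annotated antisense gene, Gm7628, shares 257 exonic bases with Plxnb1, and the library kit does not keep strand, so reads of the 2 cannot be told apart there.

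Plxna1, which pairs with neuropilins to receive secreted semaphorins, is on chromosome 6 (89316314 to 89362620, minus strand). Its level was 7.09, 7.07, 7.13 and 7.10 in Trim71-KO libraries, against 7.25, 7.23, 7.20 and 6.99 in Trim71-cond libraries. The Trim71-cond library 3B lay below all 4 Trim71-KO libraries and the other 3 lay above them. Plxna1 had 7.12, 7.31 and 7.00 in R595H/R595H clones and 6.82, 6.92 and 7.09 in R595H/+ clones, against 7.10, 6.99 and 6.70 in WT clones, all overlapping. The differences were -0.07 (adjusted p = 0.52) in Trim71-KO and 0.21 (adjusted p = 0.29) in R595H/R595H cells, by limma. The antisense gene Gm26811 shares 970 exonic bases with Plxna1, again without strand to separate them.

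Plxna2, a receptor for Sema6a in the migration of mouse cerebellar neurons, is on chromosome 1 (194618218 to 194816869). It stood at 4.31, 4.52, 4.14 and 4.65 in Trim71-KO libraries, against 4.25, 4.20, 4.29 and 4.003 in Trim71-cond libraries. The Trim71-KO library 3A was lower than 3 of the Trim71-cond libraries, and the spread among Trim71-KO libraries, an SD of 0.23, was the widest of any member in that group. The difference of Plxna2 was 0.22 (limma, adjusted p = 0.14), and without Trim71-KO 3A it was 0.31 (adjusted p = 0.044), so the call turned on that library. In the clones its differences from WT were -0.06 in both R595H/R595H and R595H/+.

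Plxnd1, the receptor of Sema3e in blood vessels (chromosome 6, 115954811 to 115995005), lay under the minimum mean of 3.32 and was not tested across genes. Its levels were 1.92 to 2.01 in Trim71-KO libraries, against 2.01 to 2.19 in Trim71-cond libraries, and 1.97 to 2.20 in R595H/R595H clones and 1.91 to 2.13 in R595H/+ clones, against 1.95 to 2.03 in WT clones. All these ranges overlap. Nrp2, the co-receptor measured here (chromosome 1, 62703285 to 62818695), was also under the minimum. It ran from 2.18 to 2.33 in Trim71-KO libraries, against 2.21 to 2.32 in Trim71-cond libraries, and its clone means were 2.32 in R595H/R595H and 2.33 in R595H/+, against 2.27 in WT. At such levels a difference may not be detectable in values of this kind.

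Sema5a, a transmembrane semaphorin with thrombospondin repeats that can attract or repel axons, fell in Trim71-KO cells relative to Trim71-cond cells. It is on chromosome 15 (32244810 to 32696341). Sema5a had 5.90, 5.88, 5.84 and 5.45 in Trim71-KO libraries, against 6.08, 6.31, 6.27 and 6.08 in Trim71-cond libraries. The groups did not overlap, and Trim71-KO 3B lay well below the rest. The means were 5.77 ± 0.21 in Trim71-KO and 6.19 ± 0.12 in Trim71-cond cells (SD, n = 4 each), a difference of -0.42, or 0.748-fold (limma, standard error 0.10, adjusted p = 0.0055). Its difference by code was -0.18 in 1A, -0.42 in 2B, -0.44 in 3A and -0.63 in 3B. It was -0.50 with both libraries of code 1A left out.

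In the clones the sign of the Sema5a difference was the other way. Sema5a had 6.65, 6.41 and 6.74 in R595H/R595H clones and 6.29, 6.31 and 6.24 in R595H/+ clones, against 6.34, 6.21 and 6.17 in WT clones. All R595H/R595H clones lay above all WT clones, with C20 the nearest to them. The difference of R595H/R595H from WT was 0.36 (95% interval 0.16 to 0.56, limma, adjusted p = 0.053), just outside the threshold. It passed with all 12 libraries and the clone as a random effect (0.35, adjusted p = 0.034), without R595H/R595H C20 (0.45, adjusted p = 0.020), and without R595H/+ C21, a clone that bears on the spread alone (adjusted p = 0.044). Over all alternatives its adjusted p lay between 0.020 and 0.22. R595H/R595H exceeded R595H/+ by 0.32 (adjusted p = 0.11, and 0.047 without C20), and R595H/+ differed from WT by 0.04 (adjusted p = 0.96). Within dates the R595H/R595H difference from WT was 0.38 for the libraries titled 20/1 and 0.33 for those titled 5/2.

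The difference between the systems was tested directly for Sema5a. The Trim71-KO difference minus the R595H/R595H difference was -0.78 (standard error 0.14, 95% interval -1.07 to -0.48, limma, adjusted p = 0.0074). It kept its call under all 24 alternatives tried, with values from -0.87 to -0.67 and adjusted p from 0.0032 to 0.030. Of the 7 members tested, Sema5a was the only one called in this comparison, where 1.42% of the 9585 genes tested were called. As for Plxnb2, genotype and system cannot be told apart in this difference.

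Sema4b, a transmembrane semaphorin of class 4 on chromosome 7 (80186841 to 80226527), showed no difference that passed the test. It had 5.88, 5.79, 5.81 and 5.88 in Trim71-KO libraries, against 5.81, 5.91, 5.82 and 6.00 in Trim71-cond libraries, which overlapped. The clone values were 5.84, 5.95 and 5.85 in R595H/R595H and 5.86, 5.81 and 5.53 in R595H/+, against 5.78, 5.81 and 5.67 in WT. The 3 R595H/R595H clones lay above the WT clones, but the difference of 0.13 did not pass the test (95% interval -0.08 to 0.34, limma, adjusted p = 0.47). In Trim71-KO cells the difference of Sema4b was -0.05 (95% interval -0.21 to 0.12).

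Sema6a, a transmembrane ligand of Plxna2, was higher in R595H/R595H than in WT clones. It is on chromosome 18 (47235598 to 47368870, minus strand). Sema6a had 3.75, 3.89 and 3.68 in R595H/R595H clones and 3.49, 3.51 and 3.43 in R595H/+ clones, against 3.27, 3.33 and 3.28 in WT clones. The 3 genotypes did not overlap, with R595H/+ between the other two. The difference of R595H/R595H from WT was 0.48, or 1.40-fold (limma, standard error 0.08, adjusted p = 0.0061), and 0.46 and 0.49 within the libraries titled 20/1 and 5/2. The difference of R595H/+ from WT was 0.18 (95% interval 0.02 to 0.35, adjusted p = 0.62), and R595H/R595H exceeded R595H/+ by 0.30 (adjusted p = 0.074, and 0.030 with all 12 libraries). The mean of Sema6a lay just above the minimum for testing, so it was not tested when that minimum was set at 5.

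In the conditional system Sema6a had 3.63, 3.53, 3.50 and 3.38 in Trim71-KO libraries, against 3.19, 3.20, 3.35 and 3.39 in Trim71-cond libraries. The groups overlapped at code 3B, where the 2 libraries differed by -0.0051. The difference was 0.23 (95% interval 0.06 to 0.39, limma, adjusted p = 0.053). It passed the threshold under quantile normalization, with equal library totals, with a spread shared over both systems, and without Trim71-KO 3B or Trim71-cond 3B (adjusted p from 0.036 to 0.050). It was 0.16 with both libraries of code 1A left out (adjusted p = 0.32). The difference between the systems was -0.26 (adjusted p = 0.23).

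**Figure D2:**
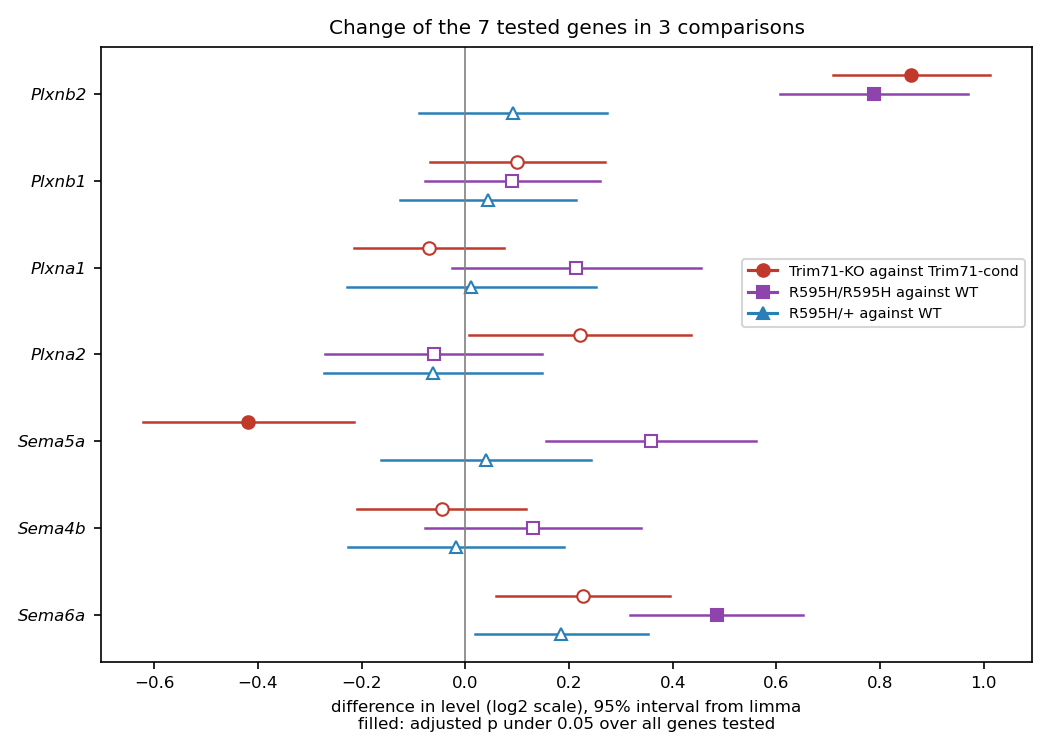
Differences in level of the 7 tested genes on the log2 scale, with 95% intervals from limma, in Trim71-KO against Trim71-cond, R595H/R595H against WT and R595H/+ against WT. Filled symbols mark an adjusted p under 0.05. Plxnb2 lies at 0.86 and 0.79 in the first 2 comparisons, and Sema5a lies on opposite sides of 0, at -0.42 and 0.36.

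Counted over the members, 2 of the 7 tested were called in Trim71-KO against Trim71-cond cells, Plxnb2 higher and Sema5a lower, where 18.6% of 9580 genes were called. The same 2 had groups that did not overlap, as 20.8% of all genes did. In R595H/R595H against WT clones, 2 of 7 were called, Plxnb2 and Sema6a, both higher, against 3.42% of 9587 genes. There 4 members did not overlap between the groups, adding Sema5a and Sema4b, against 29.7% of all genes. In R595H/+ against WT none of the 7 was called, nor was any other gene (0.0%), although 734 genes, 1 member among them (Sema6a), had an unadjusted p under 0.05 by limma. Sema6a was also the 1 member whose R595H/+ and WT clones did not overlap, against 12.5% of all genes. In R595H/R595H against R595H/+ clones, 1 member, Plxnb2, was called, against 0.772% of genes, and 3 did not overlap (Plxnb2, Sema5a and Sema6a), against 25.4%. The median difference of the 7 members was 0.10 in Trim71-KO and 0.21 in R595H/R595H cells, beside medians of 0.00 over all genes tested. Because the members were picked with these contrasts in view, nothing further is read from the counts.

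Levels of different genes were compared only per kilobase of exon, from group means converted back from the log2 scale. Plxnb2 had the highest level per kilobase, 45.7 in Trim71-KO, against 25.2 in Trim71-cond cells, and 47.0 in R595H/R595H and 29.0 in R595H/+, against 27.2 in WT cells. Plxna1 followed at 15.1 in Trim71-KO, against 15.9 in Trim71-cond cells, and Sema4b at 10.1, against 10.5. Sema5a came next at 2.91 in Trim71-KO, against 3.89 in Trim71-cond cells, and 5.19 in R595H/R595H, against 4.05 in WT cells. Plxnb1, Sema6a and Plxna2 lay between 1.06 and 1.56 in all groups and changed places between groups, so their order is not settled. Plxnd1 and Nrp2 were lowest, between 0.41 and 0.58.

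**Figure D3:**
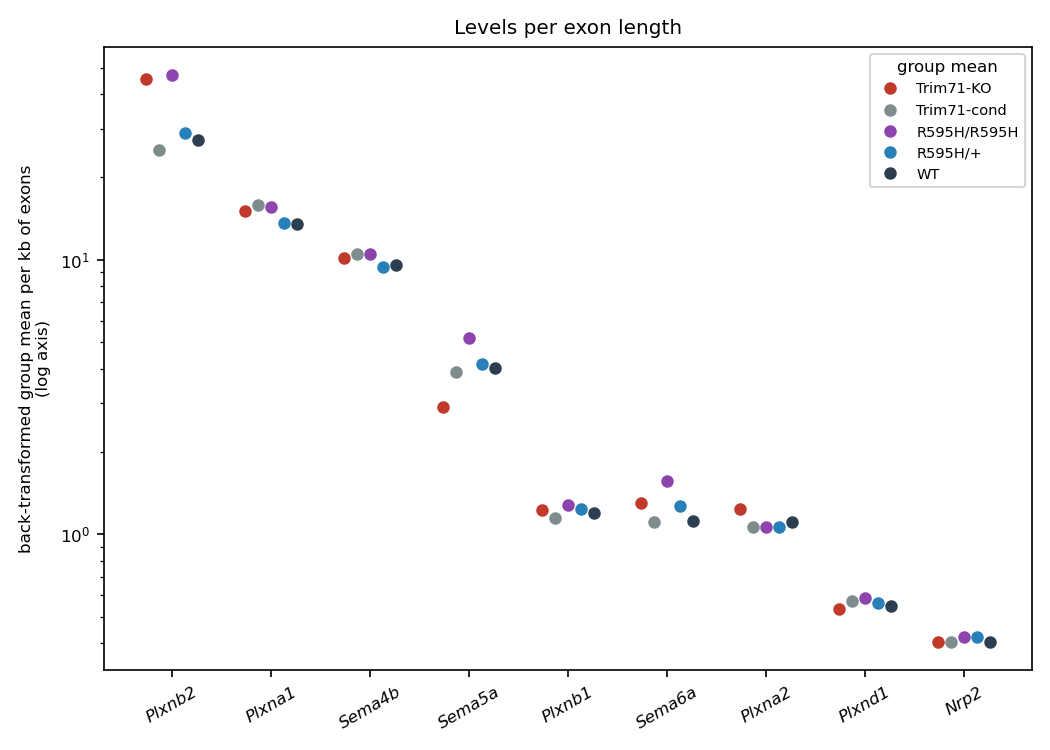
Level per kilobase of exon of the 9 measured genes, on a log axis, with 1 point per group mean and no error drawn. Plxnb2 lies between 25.2 and 47.0, above every other member in each of the 5 groups.

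Most other members of the families were little expressed in these cells. Of 21 further plexin, semaphorin and neuropilin genes listed, 16 were in the table and 3 reached the minimum for testing: Plxna3, Sema4d and Sema5b. None was called in any of the 5 comparisons. Sema4d, a ligand of Plxnb1 and Plxnb2, averaged 4.57 in Trim71-KO, against 4.71 in Trim71-cond cells (limma, adjusted p = 0.27), and 4.56 in both R595H/R595H and WT clones. Sema5b, the relative of Sema5a, averaged 3.77 in Trim71-KO, against 3.60 in Trim71-cond cells (adjusted p = 0.13), a difference of 0.17 with the sign opposite to that of Sema5a. With Plxnd1 and Nrp2, 15 of the 25 family genes measured had means under the minimum, from 1.28 to 2.92.

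Of 18 co-receptors and other ligands listed, 7 were tested. Itgb1, the beta integrin subunit through which Sema7a signals, was called in both systems. Itgb1 averaged 9.38 in Trim71-KO, against 8.91 in Trim71-cond cells (0.47, limma, adjusted p = 1.49e-05), and 9.22 in R595H/R595H, against 8.81 in WT clones (0.40, adjusted p = 0.0094). The R595H/R595H call of Itgb1 was lost without WT C16 (adjusted p = 0.059) and without R595H/R595H C14 (adjusted p = 0.064). Met, the HGF receptor that B-type plexins can associate with, was lower in R595H/R595H clones, at 3.72 against 4.21 in WT clones (-0.48, adjusted p = 0.034). R595H/+ clones were about as low, at 3.76, a difference from WT of -0.45 that was not called (limma, adjusted p = 0.47). R595H/R595H differed from R595H/+ by -0.04 (adjusted p = 0.89). The call of Met was lost under 9 of its 16 alternatives, among them 5/2 libraries only (-0.46, adjusted p = 0.068). Of the 7, 1 was called in Trim71-KO and 2 in R595H/R595H cells, beside 18.6% and 3.42% of all genes. The median difference of the 7 was 0.08 in Trim71-KO and 0.12 in R595H/R595H cells.

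Of 35 cytoplasmic effectors listed, 28 were tested in the conditional system, and 4 rose and 3 fell in Trim71-KO cells. Dpysl3, a collapsin response mediator protein that carries semaphorin signals to microtubules, averaged 6.37 in Trim71-KO, against 7.13 in Trim71-cond cells (-0.76, limma, adjusted p = 5.94e-06). Its relative Dpysl2, the best known mediator of that kind, averaged 4.63, against 4.99 in Trim71-cond cells (-0.36, adjusted p = 0.014), and 4.98 in R595H/R595H, against 5.49 in WT clones (-0.51, adjusted p = 0.0091). Cfl1, the actin-severing protein cofilin, was 0.32 lower in Trim71-KO cells (adjusted p = 0.0012). Gsk3b, a kinase that phosphorylates Dpysl2, was 0.30 higher in Trim71-KO cells (adjusted p = 0.0088) and Mical3, an actin-oxidizing protein, 0.23 higher (adjusted p = 0.022). The call of Mical3 was lost with the replicate block (adjusted p = 0.053) and under 7 of 17 alternatives in all. The 7 called of 28 stand beside the 18.6% of all genes called, and the median difference of the list was 0.02. With both libraries of code 1A left out the list had 4 calls, with Dpysl2 (-0.28, adjusted p = 0.097) and Mical3 (0.20, adjusted p = 0.13) among those no longer called.

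In R595H/R595H against WT clones, 27 effectors were tested and 2 were called, Dpysl2 among them, beside 3.42% of all genes. The call of Dpysl2 was lost without WT C7 (adjusted p = 0.052). In the difference between systems, 2 effectors were called, beside 1.42% of all genes, both lower: Cfl1 (-0.45, limma, adjusted p = 0.037) and Cdk5, a kinase of Dpysl2 named here after its value was seen. The call of Cfl1 was lost under 12 of 24 alternatives, among them 5/2 libraries only (-0.38, adjusted p = 0.16). Here too genotype and system cannot be told apart.

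Likeness was compared among 9531 genes over the 17 libraries or clones, each centred on its system. With predicted genes (named Gm or Rik) passed over, the 5 closest to Plxnb2 were Lpp (Pearson r = 0.96), Lama1 (0.96), Klf4 (0.95), Dglucy (0.95) and Abcd3 (0.94). These values describe genes picked for their likeness and share the group differences. Lama1, a laminin chain of the basement membrane, was 0.52 higher in Trim71-KO and 0.58 higher in R595H/R595H cells. Klf4, a transcription factor of naive pluripotency, was 0.74 higher in Trim71-KO and 0.47 higher in R595H/R595H cells. Abcd3, a peroxisomal transporter, was 0.75 higher in Trim71-KO and 0.86 higher in R595H/R595H cells. Lpp, a focal adhesion protein, was 0.55 higher in Trim71-KO and 0.57 higher in R595H/R595H cells. Dglucy was 0.98 higher in Trim71-KO and 0.65 higher in R595H/R595H cells, and all 10 of these differences were called by limma. The R595H/R595H call of Dglucy was lost without WT C7 (adjusted p = 0.060). Klf4 is also one of the 9 stem cell markers, whose summed level was 13.04 to 13.16 in Trim71-KO libraries, against 12.84 to 12.96 in Trim71-cond libraries. Of that list, Pou5f1, Zfp42, Dppa5a and Utf1 had lower group means in Trim71-KO than in Trim71-cond cells.

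**Figure D4:**
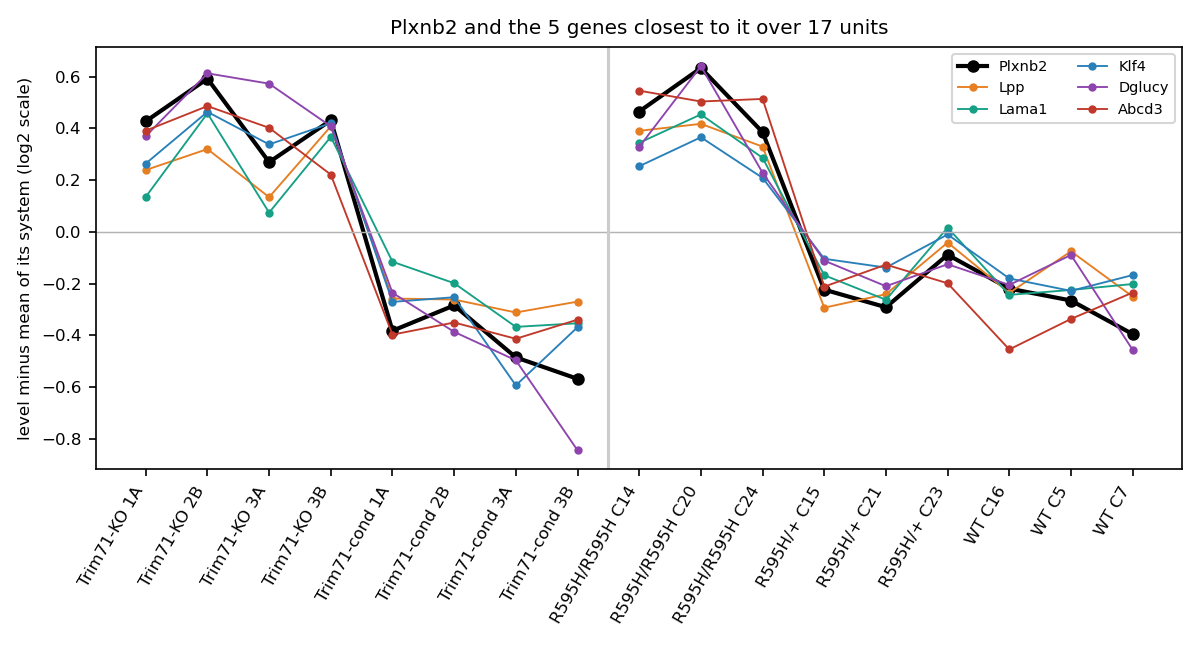
Levels of Plxnb2 and of the 5 genes closest to it with predicted genes passed over. Each is shown minus its mean over its system, on the log2 scale, in 8 conditional libraries (left) and 9 clones (right). Lines only join the points of a gene. The Trim71-KO and R595H/R595H values of all 6 genes lie above 0, and the Trim71-cond and WT values lie below it.

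With predicted genes again passed over, the 3 closest to Sema6a were Slc6a8, the creatine transporter (r = 0.92), Rxra, a retinoid receptor (0.91), and Asns, the asparagine synthetase (0.90). Asns averaged 11.2 in Trim71-KO, against 10.8 in Trim71-cond cells (0.31, limma, adjusted p = 5.38e-05), and 11.3 in R595H/R595H, against 10.9 in WT clones (0.42, adjusted p = 0.016). The R595H/R595H call of Asns was lost under 4 of 17 alternatives, with adjusted p up to 0.075. In R595H/R595H against WT clones, Slc6a8 was 0.39 higher (limma, adjusted p = 0.031) and Rxra 0.37 higher (adjusted p = 0.020). These calls were lost under 7 of 17 and 6 of 16 alternatives. The Trim71-KO calls of Slc6a8 and Rxra, at adjusted p of 0.050 and 0.049, were lost under 14 of 17 and 13 of 16 alternatives. With the replicate block the adjusted p was 0.12 for each, and with both libraries of code 1A left out it was 0.29 for Slc6a8 and 0.26 for Rxra.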

How the data were processed

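Poly(A) libraries were made from total RNA of mouse embryonic stem cells with a kit that does not keep strand and were sequenced in paired ends, per the labels' protocols. CASAVA 1.8, STAR and DESeq2 are named in the submitters' processing notes. Nothing in the sources used here gives the build, annotation, counting or transformation. The deposited table holds log2 values by the authors (base 2 inferred), from -0.65 to 18.0, with 1.58% below 0. Read counts cannot be recovered from them, so depth is unknown and no interval that needs it is given. The plan had assumed linear values, so the minimum mean of 10 became 3.32 on the log2 scale.

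Groups follow the titles and genotypes. Dates are those of the titles, with which the day labels of the clonal libraries disagree. Values were tested as deposited with limma 3.58.1 in R 4.3.3 (lmFit, eBayes with trend and robust), Benjamini-Hochberg adjusted over all genes tested and called under 0.05. The fits held 8 conditional libraries, 9 clone means, or all 17 for the difference between systems. Single values were also compared by two-sided exact permutation tests, which reach 0.0286 with 4 against 4 and 0.1 with 3 against 3. The fits were tested on simulated data. Alternatives covered filters, scaling, eBayes settings, blocks, dates, a Y-linked covariate and each library or clone left out.

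Members and gene lists were chosen with earlier results of these data known. Named were the members, called genes of the lists by smallest p (6 in Trim71-KO, 4 in R595H/R595H) and the genes closest to Plxnb2 and Sema6a by Pearson r, with predicted genes passed over. The number in each code of the conditional libraries matches the day given in the labels. The main fits and the permutation tests were not paired. Libraries of one code were taken as pairs in the differences by code and in the alternative with a replicate block. Codes 3A and 3B share day 3, so the day does not pair their libraries. Same-code deviations correlated at -0.89, -0.09, -0.12 and 0.13 over 9580 genes for 1A, 2B, 3A and 3B. For Trim71-KO 3A with Trim71-cond 3B the value was -0.09, and for Trim71-KO 3B with Trim71-cond 3A it was -0.13. One effector gene that met the naming rule is not reported here. Positions are from GENCODE vM21, in which 13156 symbols were found once, and promoters from RefSeq.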

Additional observations from a re-analysis of the deposited data

Results flagged for a closer look

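Sema5a differed between the systems by a test of the difference itself, with a Trim71-KO difference minus R595H/R595H difference of -0.7762 on the log2 scale (limma, adjusted p = 0.00744). Sema5a was lower in 4 of 4 Trim71-KO libraries than in every Trim71-cond library, and higher in 3 of 3 R595H/R595H clones than in every WT clone. Groups did not overlap for 20.8% of all genes in the first comparison and 29.7% in the second. The R595H/R595H difference from WT was not called on its own (limma, adjusted p = 0.053). Genotype and system cannot be told apart in the difference between the systems.

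Sema5a in Trim71-KO 3B, at 5.45, lay far below the other 3 Trim71-KO libraries, which ran from 5.84 to 5.90. Plxnd1 in Trim71-cond 2B, at 2.188, lay far above the other 3 Trim71-cond libraries, which ran from 2.01 to 2.03. In 18 groups of 4 examined, chance would flag about 1 in 20.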

How the results depend on the processing

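Of 639 alternative values of the members, 606 kept direction and side of the threshold, and Plxnb2 kept its calls in Trim71-KO and in R595H/R595H against WT under all 17 alternatives each. The replicate block (code) left 1392 of 1783 genes called in Trim71-KO and changed no call of a member. Genes called in R595H/R595H against WT, 328 as reported, were 157 with equal library totals, 191 with 5/2 libraries only and 134 with the Y-linked covariate, and with a clone left out ranged up to 541 (R595H/+ C21) and down to 67 (R595H/R595H C14). The members called there were 1 of 2 at a minimum mean of 5, and 2 to 3 with a clone left out. In R595H/R595H against R595H/+, the 74 genes became 116 without a filter, 19 with equal totals, 213 with 12 libraries and 3 with the Y-linked covariate, and 7 (without R595H/R595H C14) to 80 with a clone left out, and the members called, 1 as reported, were 2 with 12 libraries, 0 with the covariate and 1 to 2 with a clone left out. The difference between systems, 136 genes, had 83 with 5/2 libraries only and 40 (without WT C7) to 225 (without R595H/+ C21) with a unit left out. Reversed signs occurred only among uncalled members near 0. Plxna1 in R595H/+ against WT (0.011) was -0.015 with 5/2 libraries only and -0.010 with 12 libraries, and -0.10 to 0.096 with a clone left out. Plxna2 in R595H/R595H against R595H/+ (0.0011) was -0.018 under quantile normalization, -0.032 with equal totals and -0.0036 with 5/2 libraries only, and -0.080 to 0.085 with a clone left out. Plxnb1 there (0.047) was -0.0046 with the covariate. With a clone or library left out, Plxna2 ran from -0.12 to 0.019 in R595H/+ and from -0.12 to 0.023 in R595H/R595H against WT, Plxnb1 from -0.019 to 0.10 and Sema4b from -0.081 to 0.084 in R595H/+ against WT, and Plxnb1 from -0.049 to 0.072 in the difference between systems. The causes were not tested.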
